A study of Sus scrofa with 30 samples.

Results

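Nuclear genes for subunits of the respiratory chain and ATP synthase were examined in mammary parenchyma of sows at 5 stages. Genes were taken by symbol under the Sscrofa11.1 annotation: those beginning with NDUFA, NDUFB, NDUFC, NDUFS, NDUFV, UQCR, COX4, COX5, COX6, COX7, COX8 or ATP5, together with SDHA, SDHB, SDHC, SDHD and CYC1, and without the NDUFAF assembly factors. The rule matched 71 annotated genes, of which 69 had a transcript in the table. These 69 genes, with 124 transcripts, stood among 26012 genes and assembled loci. Of the 69, 37 encode subunits of complex I (NADH dehydrogenase), 4 of complex II (succinate dehydrogenase), 2 of complex III (cytochrome bc1), 8 of complex IV (cytochrome c oxidase, NDUFA4 included) and 15 of complex V (ATP synthase). NDUFA4L2 is a paralog of NDUFA4, and ATP5S and ATP5SL share the symbol without being structural subunits. The annotation gives many of the genes under older symbols, such as ATP5B for the beta subunit of ATP synthase. Some subunits that the rule names, COX4I1, COX5A, CYC1, UQCRC1, UQCRC2 and UQCRFS1 among them, were not matched in the annotation used and were not analysed here.

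The tissue came from multiparous Danish Landrace × Yorkshire sows that were half-siblings, with 6 sows at each stage. The stage MG was mid-gestation at day 70, and LG was late gestation at day 110. EL was early lactation, sampled 2 days after birth, PL was peak lactation, 10 days after birth, and W2 was involution, 2 days after weaning. No treatment or engineered allele was named. In the records, samples titled EL carry the stage name of mid-gestation and samples titled MG that of early lactation, and the titles were followed. In each of the stages 3 samples held almost exact copies of the mean of the other 3, so 15 samples were counted, with n = 3 per stage: MG 1, 3 and 6, LG 1, 3 and 4, EL 3, 4 and 6, PL 2, 3 and 6, and W2 2, 3 and 6. Values of 3 samples are given below in this order.

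The respiratory chain passes electrons from NADH and succinate through its complexes to oxygen, and ATP synthase uses the proton gradient that this flow builds. Most subunits are encoded in the nucleus and imported, while a small core of complexes I, III, IV and V is encoded by mitochondrial DNA. Secretory epithelium of the mammary gland is known for its many mitochondria during lactation.

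Values were transcript levels per length, summed over the transcripts of each gene and called units here. The authors call them FPKM, but each counted sample added up to between 997480 and 998888 units, as TPM values nearly do. A gene's value is therefore a share of all transcripts in the sample, and it falls when other transcripts rise. Milk protein genes (7 genes) were CSN1S1, CSN1S2, CSN2, CSN3, LALBA, WAP and PAEP. They took between 10.5% and 20.5% of all units in the MG, LG and W2 samples, 20.0% to 25.5% in EL samples and 22.6% to 40.8% in PL samples. The 6 genes other than PAEP summed to 5781 to 8140 units in W2 samples and 91237 to 285000 in PL samples. PAEP therefore made up most of the share in W2. PL 2 stood apart, with the highest milk protein share and the lowest median ratio factor (0.566, against 0.836 to 1.28 in the other samples). Such a factor is the median, over 3521 genes and loci, of the level in a sample against the geometric mean over samples. Main results are therefore given as deposited and again after division by these factors, called median ratio scaling. The division lowered log2 fold changes by 0.74 in W2 vs PL and changed those of PL vs MG and PL vs EL by 0.66 and 0.34 upwards. In such bulk tissue, fewer cells of a type and less RNA per cell cannot be told apart.

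All 69 genes were above 0 in all 15 samples. The highest and lowest mean levels were 74.4-fold apart, the median gene had 92.7 units, and 67 genes averaged at least 10 units. ATP5B, the catalytic beta subunit of ATP synthase, was the highest at 464 units on average, followed by ATP5E (the epsilon subunit, 459 units), COX6C of complex IV (447), ATP5A1 (the alpha subunit, 375) and COX7C of complex IV (333). The 10 highest genes held 38.9% of the units of the group. ATP5S, at 6.23 units, and NDUFA4L2, at 8.04 units, were the lowest.

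Most of the genes moved together across the stages. They were lowest in PL and high in MG and W2. The stage with the lowest mean was PL for 66 of the 69 genes, while the highest mean was in MG for 34 and in W2 for 31. Of reference genes with a mean of at least 10 units, 70.6% had their lowest mean in PL, 20.1% had their highest in MG and 59.6% in W2. In 47 of the 69, all 3 PL samples lay below all 12 other samples, against 22.1% of the 5747 reference genes with a mean of at least 10 units. As a share of all units, the 69 genes together stood at 1.01 ± 0.0460% (MG), 0.886 ± 0.0652% (LG), 0.827 ± 0.0715% (EL), 0.566 ± 0.0648% (PL) and 0.999 ± 0.0601% (W2; mean ± SD, n = 3 each). The PL samples had 0.498, 0.627 and 0.573%, and every other sample had 0.757% or more.

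**Figure D1:**
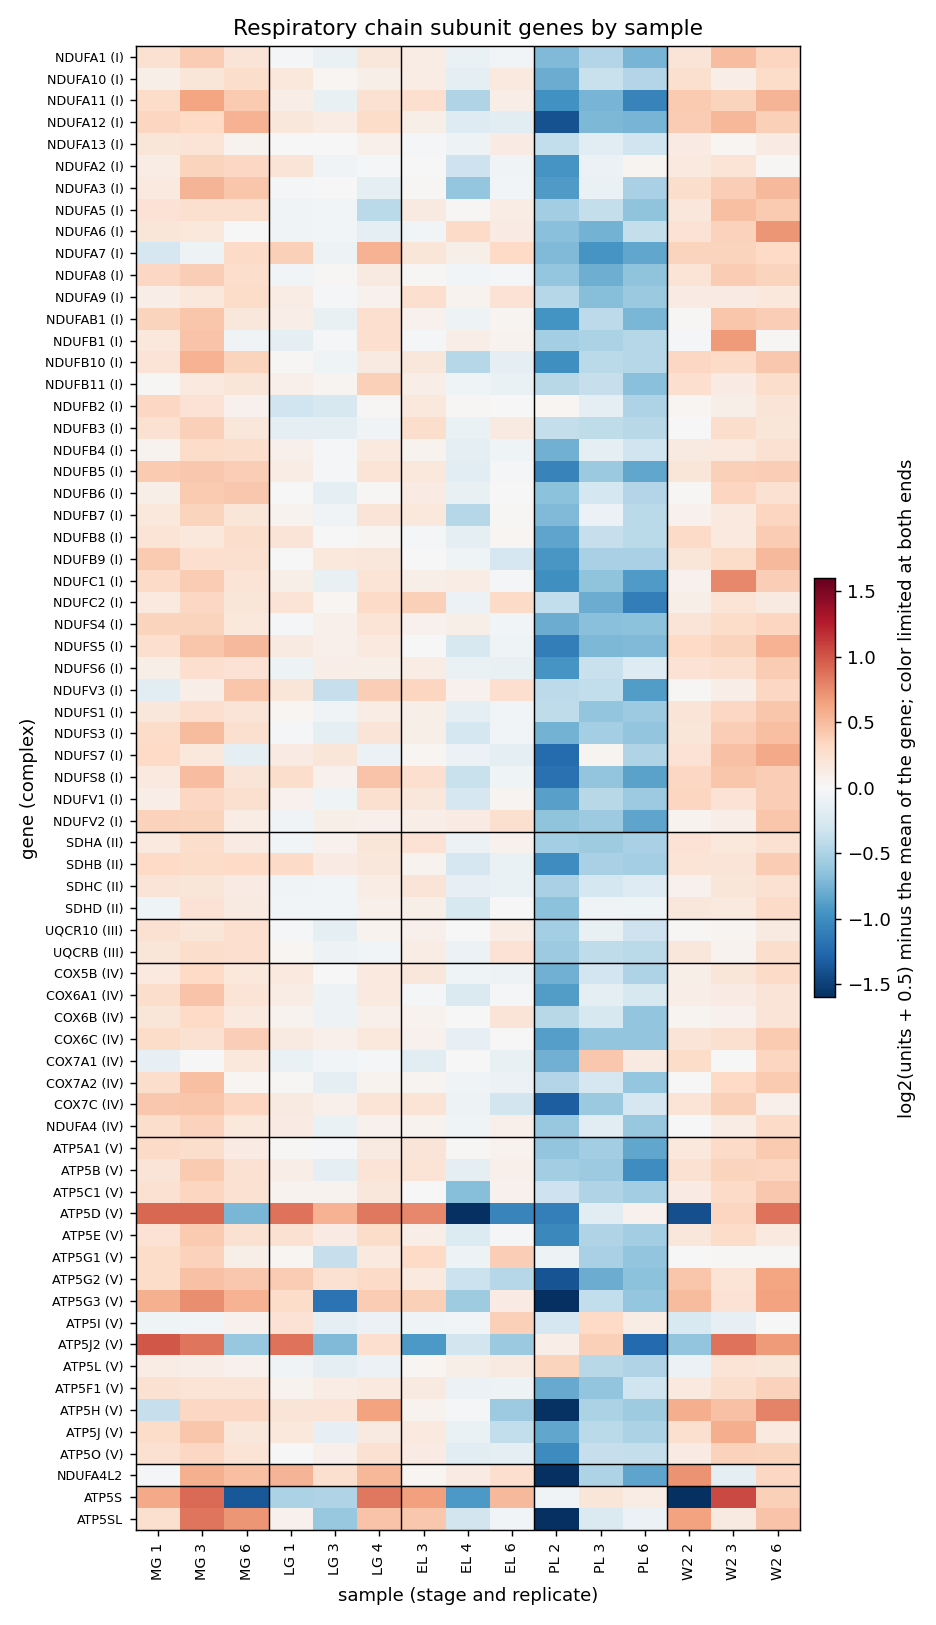
Heat map of 68 of the 69 genes (rows, grouped by complex) in the 15 counted samples (columns, by stage and replicate), as log2(units + 0.5) minus the mean of the gene. Most rows have their lowest values in the 3 PL columns, while ATP5I and COX7A1 do not and ATP5D, ATP5J2 and ATP5S vary within stages.

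Stage differences were tested with limma on log2(units + 0.5), with Benjamini-Hochberg adjustment over all 26012 genes and loci, and a gene was called at an adjusted p below 0.05. Nothing in the labels says whether the samples of a stage were processed separately after collection. In a test of any difference between the 5 stages, 50 of the 69 genes were called, against 18.3% of all genes and loci. Under median ratio scaling the count was 7 of 69, against 8.17% of all. None of the 69 met the stricter rule of the study, which adds a minimum log2 fold change of 2 in size.

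Between peak lactation and mid-gestation, 58 of the 69 genes were called lower in PL and none higher, with a median log2 fold change of -0.78. Over all genes and loci, 23.0% were called lower and the median was -0.57. Among reference genes with a mean of at least 10 units, 43.9% were called lower and the median was -0.70. The genes that fell covered 34 of 37 of complex I, 3 of 4 of complex II, both of complex III, 7 of 8 of complex IV and 11 of 15 of complex V. After median ratio scaling, 11 genes were called lower, against 5.97% of all, and 2 were called higher, against 5.04%, with a median of -0.12. With the same scaling and without PL 2, 22 were called lower (6.24% of all) and 3 higher (7.34% of all).

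At day 2 after weaning the levels were high again. In W2 vs PL, 59 of the 69 genes were called higher and none lower, with a median log2 fold change of 0.87. The background was 30.4% of all genes and loci called higher with a median of 0.68, and 52.2% of reference genes with a mean of at least 10 units with a median of 0.80. Genes that rose covered 35 of 37 of complex I, all 4 of complex II, both of complex III, 7 of 8 of complex IV and 10 of 15 of complex V. After median ratio scaling, 7 genes were called higher, against 7.42% of all, and 3 were called lower, against 5.66%, with a median of 0.13. With this scaling and without PL 2, 17 were called higher (7.12% of all) and 3 lower (7.67% of all). PL vs MG and W2 vs PL share the 3 PL samples, so calls in both are not independent evidence. As deposited 57 genes were called in both. After scaling 8 were called in both, 6 of them lower in PL, and ATP5I and SDHD higher in PL.

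From early to peak lactation, 32 of the 69 genes were called lower and none higher, with a median of -0.56. This compared with 3.85% of all genes and loci, and with 9.34% of reference genes with a mean of at least 10 units. With the EL and PL samples fitted alone, limma called 0 of 69, with 45 unadjusted p below 0.05. In the fit of all stages the count of called genes was 9 when EL 3 was left out and 13 without EL 6. No share of all genes and loci was set beside these counts, so they cannot be read against a background. After median ratio scaling the count was 5, where 2.71% of all were called lower. NDUFS5, NDUFA12, NDUFB5 and NDUFS8 were among those called both as deposited and after scaling.

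No gene of the group was called in the other 3 comparisons. Between LG and MG, limma called 0 of 69 and 0.0115% of all genes and loci, while 63 of the 69 fitted changes were below 0 and 8 had an unadjusted p below 0.05. EL vs LG gave 0 of 69 by limma, with 1 unadjusted p below 0.05 and 0.0154% of all called. Its largest positive change was that of NDUFA5, an accessory subunit of complex I (log2 fold change 0.28 ± 0.15 SE, limma adjusted p = 0.79). W2 vs MG also gave 0 of 69 by limma, with 0 unadjusted p below 0.05 and 0.0115% of all called. In that comparison 64 of the 69 fitted log2 fold changes lay within 0.25 of 0, with a median SE of 0.16, so differences of that size could not be resolved.

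**Figure D2:**
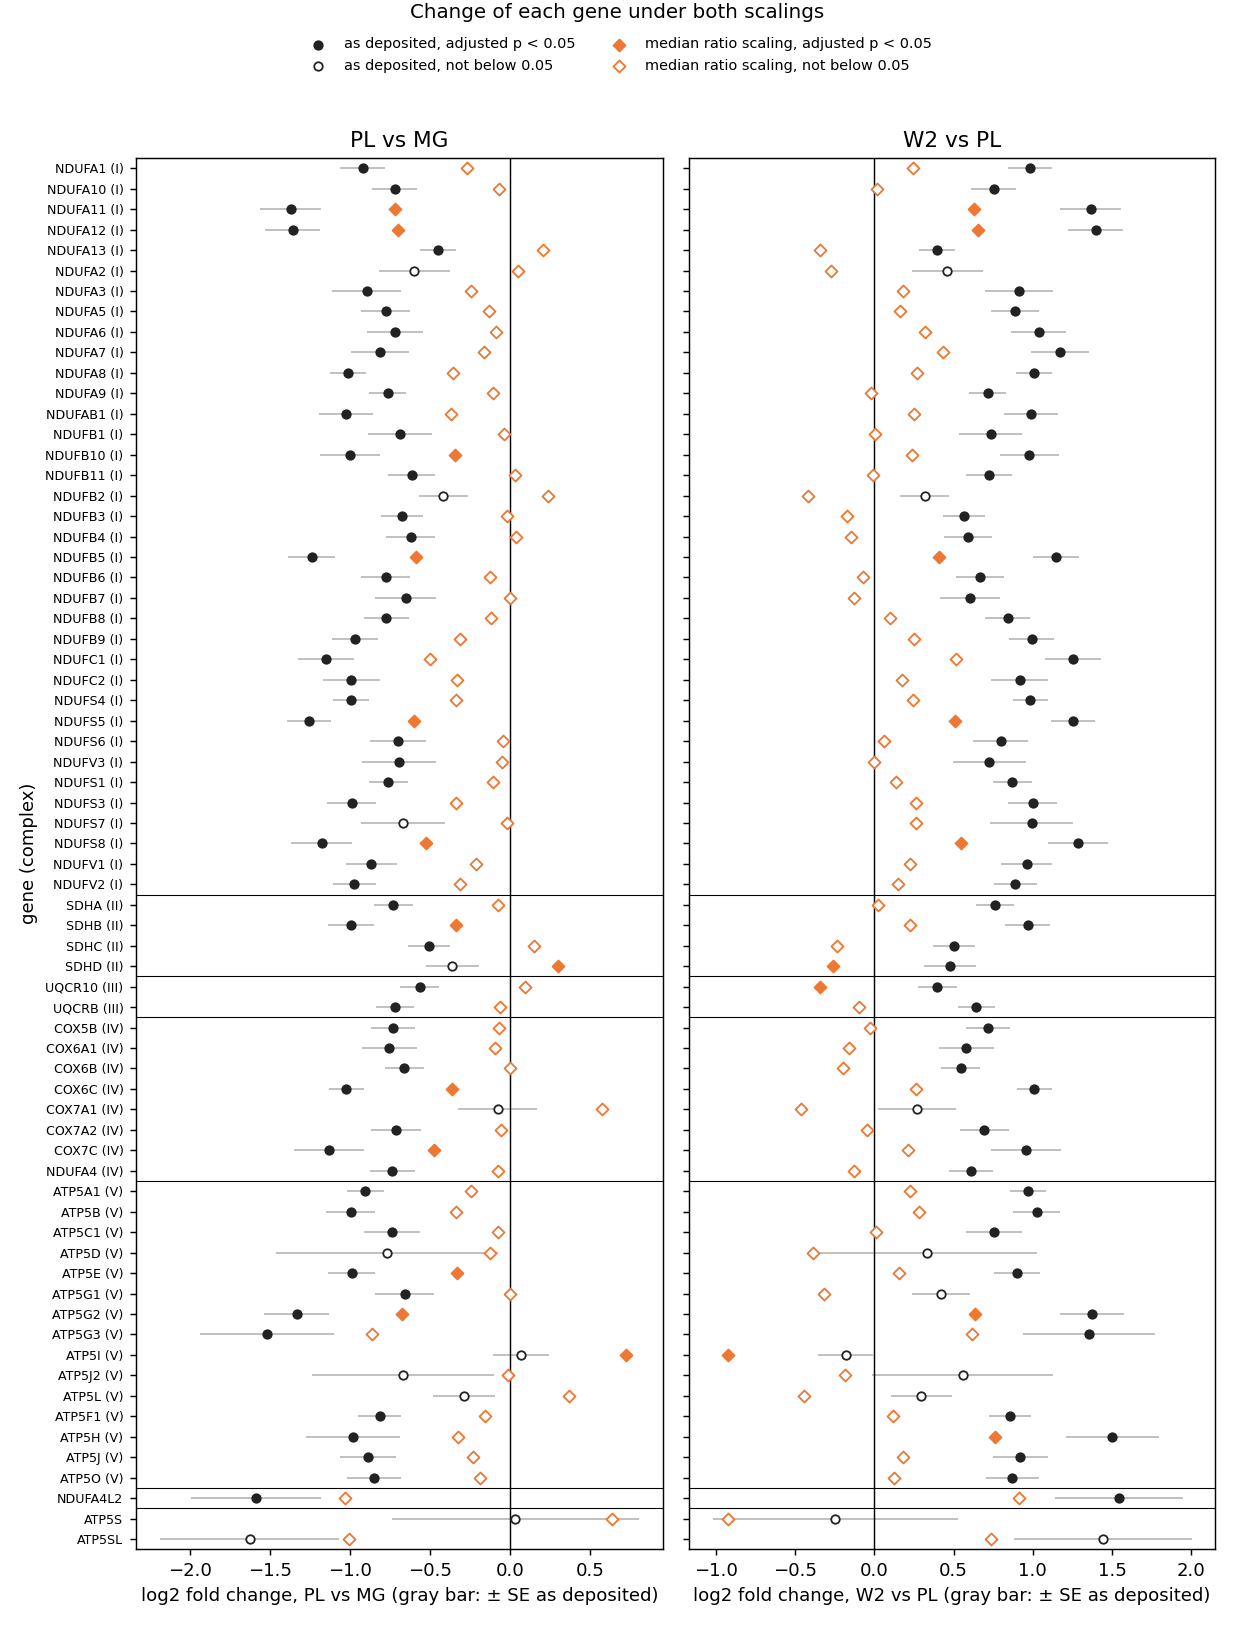
Log2 fold change of 68 of the 69 genes in PL vs MG and in W2 vs PL, with circles for values as deposited (gray bars, ± SE) and diamonds for median ratio scaling, filled where the adjusted p was below 0.05. Circles lie mostly below 0 in PL vs MG and above 0 in W2 vs PL. After scaling, 55 of the 69 changes were below 0 in PL vs MG and 42 above 0 in W2 vs PL. The diamonds of ATP5I and, with a wide error, ATP5S lie farthest on the other side of 0.

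Complex I takes electrons from NADH, and its accessory subunits NDUFS5 and NDUFA12 were among the genes with the smallest adjusted p. For NDUFS5 (chr6:94913406-94919458, Sscrofa11.1), MG samples had 206, 233 and 246 units, LG samples 189, 181 and 191, EL samples 171, 142 and 163, PL samples 79.4, 103 and 104, and W2 samples 213, 218 and 252. The PL samples lay below all others, and MG and W2 overlapped. Its log2 fold change was -1.26 ± 0.14 (SE) in PL vs MG (limma, adjusted p = 0.00016) and 1.25 ± 0.14 in W2 vs PL (adjusted p = 0.00014). After median ratio scaling the changes were -0.60 and 0.51 (limma, adjusted p = 0.0011 and 0.0023).

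For NDUFA12 (chr5:88292760-88317111), MG samples had 132, 130.5 and 153 units, LG samples 119, 113 and 128, EL samples 111, 90.1 and 93.0, PL samples 39.4, 63.0 and 61.8, and W2 samples 139, 151 and 136. Every PL sample was below every other sample, and the EL samples were below those of MG, LG and W2. The log2 fold change was 1.40 ± 0.17 in W2 vs PL (limma, adjusted p = 0.00024) and 0.66 after median ratio scaling (adjusted p = 0.00099). NDUFA11, an accessory subunit of the membrane arm, had 97.7 ± 11.9 units in MG, 37.4 ± 4.58 in PL and 96.8 ± 6.55 in W2 (SD, n = 3). It was called in PL vs MG and in W2 vs PL under both scalings, as were NDUFB5 and NDUFS8.

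The 7 core subunits of complex I that the nucleus encodes form the part that transfers electrons. In W2 vs PL all 7 were called higher as deposited, and in PL vs MG 6 of 7 were called lower, the exception being NDUFS7 (log2 fold change -0.67, limma adjusted p = 0.078). NDUFS8, which holds iron-sulfur clusters, had 31.4, 46.4 and 39.6 units in PL and 91.0, 98.5 and 95.1 in W2. Every W2 sample was above every PL sample, and after median ratio scaling the change of NDUFS8 was 0.55 (limma, adjusted p = 0.0087).

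Other genes of complex I with small adjusted p in W2 vs PL were NDUFA8 (log2 fold change 1.01), NDUFS4 (0.99), NDUFC1 (1.25), NDUFB9 (0.99), NDUFA1 (0.98), NDUFV2 (0.89), NDUFS1 (0.87) and NDUFS3 (1.00). None of these 8 was called in W2 vs PL after median ratio scaling. With this scaling and without PL 2, NDUFA8 (0.48), NDUFS4 (0.38), NDUFC1 (0.63), NDUFA1 (0.39), NDUFS1 (0.38) and NDUFS3 (0.39) were called higher. NDUFB9 (0.30) and NDUFV2 (0.35) were not called in that fit. NDUFA2 and NDUFB2 were the genes of complex I not called in W2 vs PL as deposited, and NDUFB2 was called without PL 2 (0.43, limma adjusted p = 0.04).

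Complex II oxidizes succinate, and its 4 genes did not move alike. SDHA, the flavoprotein, had 65.0, 70.8 and 64.0 units in MG, 40.0, 39.1 and 40.5 in PL and 68.7, 65.7 and 69.4 in W2. SDHB, the iron-sulfur subunit, had 151, 147 and 149.8 units in MG, 60.2, 83.5 and 82.2 in PL and 140.2, 139 and 159.9 in W2. For both, the PL samples lay below all MG and W2 samples. SDHD (chr9:39790654-39803602), a membrane anchor, had 135, 167 and 157 units in MG, 90.4, 137 and 135 in PL and 162, 159 and 176 in W2. Its PL and MG samples overlapped, while its W2 samples lay above those of PL. SDHB rose by 0.97 ± 0.14 on the log2 scale in W2 vs PL (limma, adjusted p = 0.00061) and SDHD by 0.48 ± 0.17 (adjusted p = 0.043). For SDHD the call was lost without PL 2 (0.28, limma adjusted p = 0.11), and after median ratio scaling SDHD was called lower in W2 (-0.26, adjusted p = 0.032). SDHC, the other anchor, was called higher in W2 vs PL as deposited (0.50, limma adjusted p = 0.013), and its change was -0.24 after median ratio scaling (adjusted p = 0.13).

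Complex III reduces cytochrome c and was represented by its small subunits UQCRB and UQCR10. UQCRB had 109 ± 6.75 units in PL and 171 ± 13.6 in W2 (SD, n = 3), and UQCR10 112 ± 16.8 and 147 ± 6.94. Both were called higher in W2 vs PL as deposited (log2 fold changes 0.64 and 0.40). After median ratio scaling UQCR10 was called lower in W2 (-0.34, limma adjusted p = 0.046), a call that was lost without PL 2 (-0.27, adjusted p = 0.099).

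Complex IV passes electrons to oxygen. For COX6C, one of its small subunits, MG samples had 533, 511 and 572 units, LG samples 478, 459 and 488, EL samples 453, 396 and 431, PL samples 235, 280.2 and 279.7, and W2 samples 501, 517 and 579. Its PL samples were below all the others. The log2 fold change was -1.03 ± 0.11 in PL vs MG (limma, adjusted p = 0.00016) and 1.01 ± 0.11 in W2 vs PL (adjusted p = 0.00014). After median ratio scaling it was called in PL vs MG (-0.37, limma adjusted p = 0.032) and not in W2 vs PL (0.26, adjusted p = 0.1). With this scaling and without PL 2, COX6C was called in W2 vs PL (0.36, limma adjusted p = 0.013). COX7C had a wider spread in PL, at 127, 212 and 265 units, against 371, 418 and 337 in W2. COX5B, COX6A1 and NDUFA4 were called higher in W2 vs PL as deposited (0.72, 0.58 and 0.61), but all 3 changes were below 0 after median ratio scaling (-0.026, -0.16 and -0.13, none called).

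Complex V joins the catalytic F1 head to the membrane ring through a stalk. For ATP5B (chr5:21984750-21992393), MG samples had 515, 598 and 533 units, LG samples 481, 402 and 524, EL samples 524, 405 and 475, PL samples 304, 300.4 and 225, and W2 samples 530.04, 576 and 567. For ATP5A1, its partner in the head, MG samples had 449, 442 and 399 units, LG samples 371, 359 and 402, EL samples 419, 369.9 and 378, PL samples 236, 247 and 205, and W2 samples 409, 450.5 and 489. In both genes the PL samples lay below all 12 others, and MG and W2 overlapped. The log2 fold changes in W2 vs PL were 1.02 ± 0.15 for ATP5B (limma, adjusted p = 0.00059) and 0.97 ± 0.12 for ATP5A1 (adjusted p = 2e-04). Neither was called after median ratio scaling (0.28 and 0.23). With this scaling and without PL 2 both were called (0.54 for ATP5B and 0.43 for ATP5A1, limma adjusted p = 0.01 for each). Units of ATP5B per unit of ATP5A1 stayed between 1.09 and 1.35 in all 15 samples.

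The 4 stalk genes ATP5F1, ATP5H, ATP5J and ATP5O were all called higher in W2 vs PL and lower in PL vs MG as deposited. ATP5O, the oligomycin sensitivity subunit, had 159, 248 and 246 units in PL and 352, 413 and 409.6 in W2. ATP5H, subunit d, had 61.6, 129.8 and 125 units in PL and 278, 256 and 322 in W2, the largest change of the 4 (log2 fold change 1.50 ± 0.29, limma adjusted p = 0.0029). Its call in PL vs MG was lost without PL 2 (-0.64, limma adjusted p = 0.096). Most units of ATP5H stood on 1 of its 3 transcripts in 12 samples and on another in LG 4, W2 2 and W2 6. With the transcript of the highest mean alone the change in W2 vs PL was -0.49, so the rise was a property of the sum and not of that transcript.

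By contrast, none of the 3 genes for small membrane subunits, ATP5I (e), ATP5J2 (f) and ATP5L (g), was called as deposited in a comparison with PL. For ATP5I (chr8:112092-113526), MG samples had 222, 227 and 246 units, LG samples 274, 209 and 219, EL samples 222, 227 and 305, PL samples 194, 290.2 and 253, and W2 samples 197, 212 and 234. The 5 stages overlapped. The log2 fold change was -0.18 ± 0.17 in W2 vs PL (limma, adjusted p = 0.45), and after median ratio scaling it was -0.92 (adjusted p = 0.0021), or -0.90 without PL 2 (adjusted p = 0.006). In PL vs MG the change was 0.066 as deposited (limma, adjusted p = 0.82) and 0.73 after scaling (adjusted p = 0.0088). ATP5L rested on PL 2, which had 82.7 units beside 47.3 and 45.9 in the other PL samples. Without PL 2 it was called higher in W2 vs PL (0.57, limma adjusted p = 0.0025).

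A ratio between genes of the same sample does not depend on scaling. Units of ATP5I per unit of ATP5O, a pair chosen after the values were seen, were 1.22, 1.17 and 1.03 in PL, against 0.602 ± 0.0517 (MG), 0.682 ± 0.148 (LG), 0.831 ± 0.216 (EL) and 0.548 ± 0.0301 (W2; SD, n = 3). The 3 PL samples lay above those of MG, LG and W2 and overlapped with EL 6 (1.06). SDHD per SDHB, chosen in the same way, was 1.50, 1.64 and 1.65 in PL and at most 1.26 in the other 12 samples. The ratio of ATP5G2 to ATP5O was 0.289 ± 0.0153 in PL and 0.416 ± 0.0691 in W2, and PL overlapped with EL 6 (0.301). Such ratios show unequal change in a pair and do not tell which gene of it changed.

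**Figure D3:**
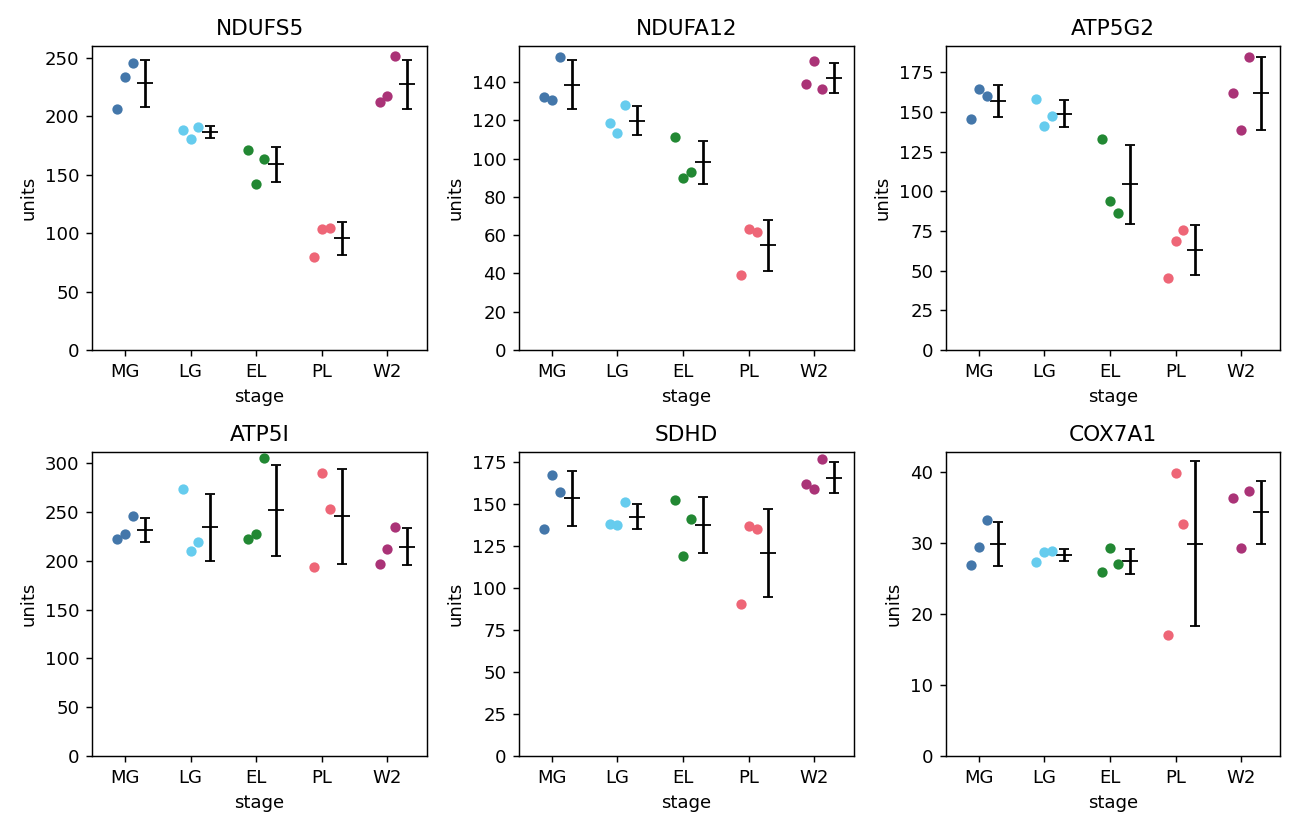
Units of 6 genes by stage, with a point per sample and the mean ± SD (n = 3) in black; all axes start at 0. NDUFS5, NDUFA12 and ATP5G2 have their lowest points in PL without overlap, while the PL points of ATP5I, SDHD and COX7A1 overlap with other stages and PL 2 is the lowest of the 3.

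**Figure D4:**
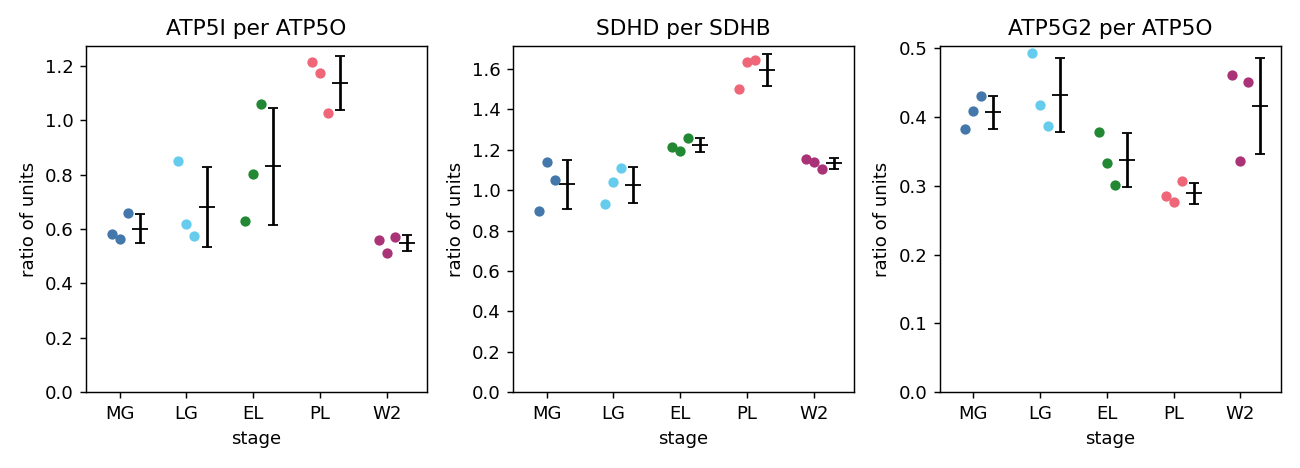
Ratios of units within a sample for ATP5I per ATP5O, SDHD per SDHB and ATP5G2 per ATP5O, by stage, with points for samples and the mean ± SD (n = 3) in black. The PL points of SDHD per SDHB (1.50 to 1.65) lie above all others, and those of ATP5I per ATP5O (1.03 to 1.22) overlap with EL 6 alone.

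The c ring of ATP synthase is built from identical subunits that 3 genes encode with different import sequences. For ATP5G2 (chr5:18871025-18879933), MG samples had 146, 165 and 159.99 units, LG samples 158, 141 and 147, EL samples 133, 94.0 and 86.7, PL samples 45.4, 68.5 and 75.5, and W2 samples 162, 139 and 185. All PL samples were below the others, and the change in W2 vs PL was 1.37 ± 0.20 on the log2 scale (limma, adjusted p = 0.00062) and 0.63 after median ratio scaling (adjusted p = 0.0074). ATP5G3 had 238 ± 18.0 units in MG, 88.5 ± 36.5 in PL and 214 ± 29.7 in W2 and was called higher in W2 vs PL (1.36 ± 0.42, limma adjusted p = 0.026), a call lost without PL 2 (0.96, adjusted p = 0.11). ATP5G3 varied more than ATP5G2, with 189, 67.9 and 204 units in LG. ATP5G1 had 118, 87.4 and 81.0 units in PL and 125, 127 and 127 in W2 and was not called in W2 vs PL (0.42 ± 0.18, limma adjusted p = 0.098), but it was without PL 2 (0.58, adjusted p = 0.027). Of the c subunit units, ATP5G1 supplied 56.0% in PL 2 and between 23.0% and 39.4% in all other samples.

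Complex IV has alternative forms of subunit 7A, of which COX7A1 is known as the heart and muscle form and COX7A2 as the widespread form. COX7A2 had 138, 159 and 115 units in MG, 81.6, 94.2 and 73.8 in PL and 113, 141 and 152 in W2, and was called higher in W2 vs PL (log2 fold change 0.69, limma adjusted p = 0.0058), which was -0.047 after median ratio scaling. COX7A1 (chr6:45519225-45520721) had 27.0, 29.5 and 33.2 units in MG, 17.1, 39.9 and 32.7 in PL and 36.3, 29.3 and 37.4 in W2, and its stages overlapped. Its change in W2 vs PL was 0.27 (limma, adjusted p = 0.42), and -0.081 without PL 2 (adjusted p = 0.72). After median ratio scaling without PL 2 it was called lower in W2 (-0.64, limma adjusted p = 0.026). COX7A1 made up 17.3, 29.8 and 30.7% of the pair in the PL samples, and between 15.7% and 24.3% in the other samples. MYH2, a fast skeletal muscle myosin, stood at 2.70, 11.7 and 13.0 units in the PL samples and below 1 unit in all others. Of 8 skeletal muscle markers, MYH1 and MYH2 were in the table, and the part of muscle tissue in the COX7A1 values was not tested.

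NDUFA4L2, a paralog of NDUFA4 known from hypoxic cells, had 7.16, 11.0 and 10.3 units in MG, 0.978, 5.01 and 3.80 in PL and 12.2, 6.52 and 9.19 in W2. It had the largest fitted rise of the 69 genes in W2 vs PL as deposited (log2 fold change 1.54 ± 0.41, limma adjusted p = 0.013), from a low level and with a wide error. That rank rested on PL 2, without which the change was 0.97 and that of NDUFA11 1.34. The change was 0.91 after median ratio scaling (limma, adjusted p = 0.11). NDUFA4 itself had 164 ± 28.8 units in PL and 249 ± 26.2 in W2. ATP5SL had the lowest fitted change in PL vs MG (-1.63 ± 0.56, not called). This too rested on PL 2, which had 2.86 units beside 18.6 and 20.5 in the other PL samples. Without PL 2 the change of ATP5SL was -0.77 and that of NDUFA11 -1.35. ATP5S had the lowest fitted change in W2 vs PL (-0.25 ± 0.77, limma adjusted p = 0.84).

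Spread between samples of a stage differed between genes. The coefficient of variation within stages, averaged over the 5 stages, had a median of 10.9% over the 69 genes and was above 20% in 7. These were ATP5S, ATP5D, ATP5J2, ATP5SL, ATP5G3, NDUFA4L2 and ATP5H. ATP5J2 had 239, 216 and 78.1 units in MG, 128, 155 and 50.0 in PL and 76.6, 218 and 191 in W2, with low and high samples in each. ATP5D, the delta subunit of the F1 head, had 45.4, 45.4 and 14.1 units in MG, 40.8, 7.12 and 11.2 in EL and 8.65, 30.3 and 43.7 in W2, and gave the lowest change in EL vs LG (-1.41 ± 0.69, limma adjusted p = 0.79).

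The mitochondrially encoded subunits, which assemble with the nuclear ones, varied less in their sum, though not in each gene. ND4 was below 1 unit in 13 of the 15 samples and had 239 units in EL 4 and 243 in W2 3, and the other 12 genes make up nearly all of the sum. The 13 mitochondrial genes summed to 8.35 ± 0.214% of all units in MG, 7.67 ± 1.15% in PL and 8.84 ± 0.0905% in W2. In W2 vs PL, 5 of the 13 were called higher as deposited (30.4% of all genes and loci), and after median ratio scaling none was called higher (7.42% of all) and 9 lower (5.66% of all). Per unit of the 69 nuclear genes, mitochondrial units numbered 8.34, 8.10 and 8.41 (MG), 9.73, 10.9 and 9.47 (LG), 9.24, 10.5 and 9.76 (EL), 12.8, 12.7 and 15.0 (PL) and 9.36, 8.83 and 8.43 (W2). All 3 PL samples were above all 12 others, and this ratio within a sample does not depend on scaling. It was not computed for other nuclear genes. Of reference genes with a mean of at least 10 units, 70.6% also had their lowest mean in PL. The ratio is therefore not shown to be particular to the 69 genes. Within complex I the ratio was 9.22 ± 1.20 in PL and 6.43 ± 0.259 in W2. For complex IV it was 32.1 ± 1.72 and 20.8 ± 1.31, and for ATP synthase 8.07 ± 1.35 and 4.97 ± 0.353, and in each the PL samples were above all others.

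**Figure D5:**
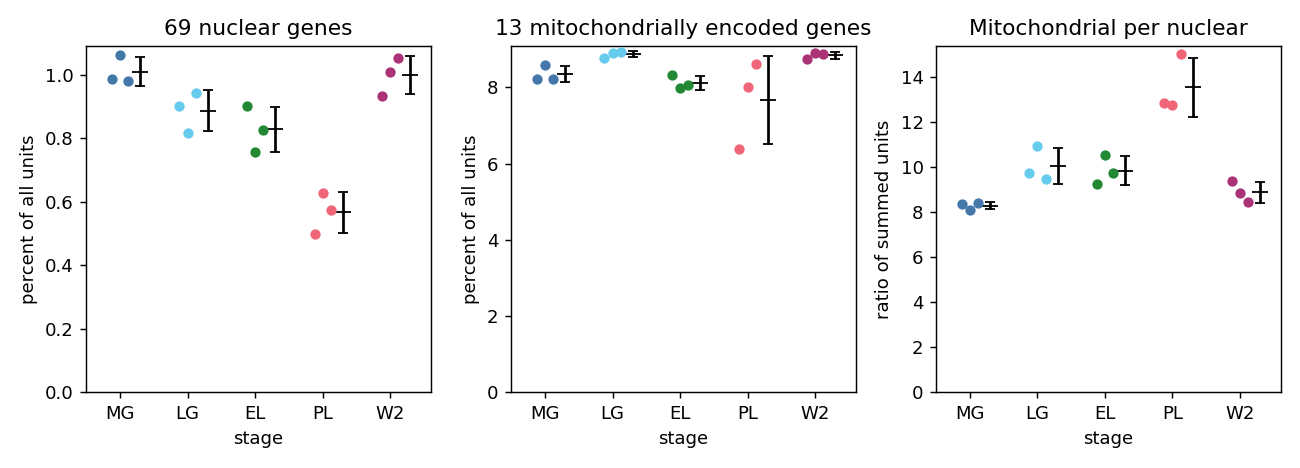
Summed units of the 69 nuclear genes and of the 13 mitochondrially encoded genes, as a percent of all units, and the ratio of the mitochondrial to the nuclear sum, by stage; points are samples and black marks the mean ± SD (n = 3). The nuclear sum is lowest in PL (0.498% to 0.627%) and the ratio is highest there (12.7 to 15.0), while the lowest mitochondrial sum is that of PL 2 (6.39%).

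Other genes of mitochondrial energy metabolism were counted in the same fits, where 30.4% of all genes and loci and 52.2% of reference genes with a mean of at least 10 units were called higher in W2 vs PL, and 23.0% and 43.9% lower in PL vs MG. Of 33 assembly factors in the table, 15 were called higher in W2 vs PL and 12 lower in PL vs MG. After median ratio scaling, 4 were called higher and 1 lower in W2 vs PL. The shares of all genes and loci were then 7.42% higher and 5.66% lower. LRPPRC, which stabilizes mitochondrial messages, had a log2 fold change of 1.29 in W2 vs PL as deposited and of 0.56 after scaling (limma, adjusted p = 0.00052 and 0.0086). Of 12 electron carriers and exchangers, 9 were called higher in W2 vs PL and 10 lower in PL vs MG. The phosphate carrier SLC25A3 had 167, 290.4 and 318 units in PL and 619, 622 and 701 in W2 (log2 fold change 1.37). The outer membrane channels VDAC1 and VDAC2 and the ADP/ATP carrier SLC25A6 were also called higher (1.38, 1.29 and 1.35). These 4 were also called after median ratio scaling, with changes of 0.63, 0.64, 0.55 and 0.61. CYCS, the cytochrome c gene, was not called (0.43, limma adjusted p = 0.11). Of 18 genes of pyruvate dehydrogenase and the citric acid cycle, 13 were called higher in W2 vs PL and 13 lower in PL vs MG, and after scaling DLD was called higher and IDH2 lower in W2 vs PL.

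Among 17 regulators of mitochondrial biogenesis, 12 were called higher in W2 vs PL and 8 lower in PL vs MG, beside the same background. With median ratio scaling, 3 were called higher (7.42% of all genes and loci) and 1 lower (5.66%) in W2 vs PL. In PL vs MG 1 was called higher (5.04% of all). PPARGC1A, a coactivator of this program, had 0.216, 0.735 and 0.733 units in PL and 1.69, 2.03 and 2.63 in W2, all low levels. NRF1, an activator of respiratory chain genes, had 2.69, 5.66 and 1.66 units in PL and 12.8, 14.0 and 12.1 in W2. GABPA, another activator of these genes, had 6.20, 10.6 and 10.4 units in PL and 18.9, 23.6 and 21.5 in W2. For these 3 the PL and W2 samples did not overlap. The log2 fold changes in W2 vs PL were 1.33, 1.95 and 1.22 as deposited (limma, adjusted p = 0.0041, 0.0014 and 0.0014) and 0.89, 1.28 and 0.51 after median ratio scaling (adjusted p = 0.03, 0.023 and 0.014). TFAM, which packages and transcribes mitochondrial DNA, was called higher as deposited (0.92, limma adjusted p = 0.0031) and not after scaling (0.20, adjusted p = 0.35). ESRRA, a nuclear receptor of the same program, had a change of -0.030 as deposited (limma, adjusted p = 0.94) and was called lower in W2 after scaling (-0.76, adjusted p = 0.0061).

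Markers of cell types moved between the same stages. The summed secretory markers (6 genes) ranged from 91237 to 285000 units in PL and from 5781 to 8140 in W2, and all 6 were called lower in W2 vs PL. The 5 luminal epithelial markers summed to 771 to 1592 units in PL and 1249 to 1720 in W2, with none called as deposited. Fibroblast markers (6 genes) summed to 472 to 1087 units in PL and 1401 to 2632 in W2, with 5 called higher. Endothelial markers (3 genes in the table) summed to 68.9 to 101 units in PL and 112 to 128 in W2, with 2 called higher. The PL samples ranged widely in macrophage markers (4 genes), from 51.5 to 355 units against 142 to 176 in W2, and in basal markers (5 genes), from 773 to 1952 units against 1407 to 1674 in W2. Adipocyte markers (4 genes) summed to 310 to 876 units in PL and 581 to 914 in W2, and lymphocyte markers (5 genes) to 723 to 897 in PL and 393 to 809 in W2. These marker calls are as deposited, where 30.4% of all genes and loci were called higher in W2 vs PL. Among reference genes with a mean of at least 10 units the share was 52.2%. The part of these cell types in the results was not tested. With the milk protein genes left out of the totals, 39 of the 69 genes were called higher and 1 lower in W2 vs PL, and 42 lower in PL vs MG. Shares of all genes and loci were not set beside these counts, so they do not show a change beyond the background. For any stage, that fit called 30 of the 69 genes and 3263 of all 26005 genes and loci.

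Across the 15 samples, Pearson's r between pairs of the 69 genes had a median of 0.81 as deposited, and 0.26 under median ratio scaling. For pairs of reference genes with a mean of at least 10 units the medians were 0.48 and 0.01. Values of a sample share a library and its milk protein share, so these correlations are a description. The genes that followed the mean of the group least as deposited were ATP5I (r = -0.07), ATP5S (0.12), ATP5L (0.29), COX7A1 (0.35) and ATP5J2 (0.35).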

How the data were processed

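RNA of sow mammary tissue was sequenced by the authors, who trimmed reads with Trimmomatic, aligned them with HISAT2 to Sscrofa11.1 and quantified transcripts with StringTie. The deposited table holds values that the authors call FPKM, for transcripts with at least 0.5 in at least 1 stage. They also name RUVs, and whether the table includes that step is not stated. It holds 61773 transcripts in 30 samples and gives no reads per transcript. Read totals of the libraries, which the study lists, and its raw counts were not used here, so precision was taken from the spread between samples and not from counting error.

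Transcripts were matched to RefSeq genes of Sscrofa11.1 (32430 of 32726 reference identifiers) and summed per gene. Near-identical samples had median differences of up to 1.85% within a stage, against 19.6% to 59.8% for the counted ones. limma 3.58.1 in R 4.3.3 was fitted to log2(value + 0.5) of all 5 stages, with trended variance, no filter and Benjamini-Hochberg adjustment over 26012 genes and loci. Fold changes on this scale understate those of low genes. Median ratio scaling used genes with at least 10 units in every sample. In data simulated for W2 vs PL with 26012 genes, 38 of 100 planted log2 changes of 1 and 77 of 100 of 2 were recovered, with 5 false calls.

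Genes named with values were the 15 highest, up to 20 called ones by adjusted p, paralogs, SDHA to SDHD, the largest rise and fall of each comparison, and called genes of the other lists with PPARGC1A, ESRRA, NRF1, GABPA and TFAM; other genes were named after their values were seen. Members and lists were chosen with earlier results of these data known. Alternatives were other pseudocounts, filters, normalizations and sample sets, a replicate block, single transcripts, and each sample left out. No sequencing batch was named in the sources used here. Results for 1 gene are not reported here on their own.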

Additional observations from a re-analysis of the deposited data

How the results depend on the processing

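With 3 samples per stage and no reads per transcript, an uncalled gene may have changed. In data simulated for W2 vs PL, 38 of 100 planted log2 changes of 1 were recovered among 26012 genes. Those data held 100 planted changes of each size, whereas 7899 genes and loci were called higher in the measured W2 vs PL. With fewer changed genes an adjusted p below 0.05 is harder to reach, so the simulated recovery does not give the share missed here. Pseudocounts of 0.1 and 1 and a filter at a mean of 1 unit kept all 7 counts within 1.5 times. Called genes numbered 10 in W2 vs PL, 13 in PL vs MG, 5 in PL vs EL and 7 for any stage after median ratio scaling, and 15, 18, 13 and 11 after quantile normalization. Median ratio scaling without PL 2, chosen after seeing the data, gave 20, 25, 26 and 22. Without milk protein genes the count for any stage was 30. The compared stages alone gave 39, 31 and 0 in W2 vs PL, PL vs MG and PL vs EL. Single transcripts gave 39 in W2 vs PL, 8 in PL vs EL and 22 for any stage. All 6 samples per stage gave 35 in LG vs MG, 19 in EL vs LG, 63 in PL vs EL and 4 in W2 vs MG, and the near-identical samples counted once gave 1 in LG vs MG and 53 in PL vs EL. In the latter, the mean of the near-identical samples was added as 1 more sample per stage. Both settings add values close to the stage mean, which lowers the estimated spread, so their counts are not further evidence. Over all 26012 genes and loci, calls for any stage also differed between settings. They numbered 4757 in the main fit, 19729 with all 6 samples per stage and 12731 with near-identical samples counted once. Median ratio scaling gave 2125, quantile normalization 2174, single transcripts 1184 and the replicate block 2666. Leaving out 1 sample gave 53 to 60 in W2 vs PL, 47 to 60 in PL vs MG, 9 to 31 in PL vs EL, 42 to 52 for any stage and 0 to 0 in the other 3. The cause of the other differences between settings was not tested.

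Replicate numbers did not pair the samples: deviations of same-numbered samples correlated at 0.008 on average, and 1 of 15 samples correlated best with its own number. The replicate block gave 1 gene in PL vs EL, 57 in W2 vs PL, 43 in PL vs MG, 35 for any stage and 0 in the other 3.

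After median ratio scaling 25 of the 69 genes turned direction in W2 vs PL and 12 in PL vs MG. Among the named genes called as deposited, and COX7A1, those that turned in W2 vs PL were COX5B (-0.026), COX6A1 (-0.16), COX7A1 (-0.46), COX7A2 (-0.047), NDUFA4 (-0.13), SDHC (-0.24) and SDHD (-0.26), and in PL vs MG SDHC (0.15). UQCR10 in W2 vs PL (-0.34) and SDHD in PL vs MG (0.30) also turned and were called. The same scaling without PL 2 turned COX6A1 (-0.21), COX7A1 (-0.64), NDUFA4 (-0.020), SDHC (-0.15) and SDHD (-0.28), and SDHC in PL vs MG (0.051). Quantile normalization turned COX7A1 (-0.42), SDHC (-0.12) and SDHD (-0.091), and SDHC in PL vs MG (0.028). COX7A1 also turned without milk protein genes (-0.052) and, among fits without 1 sample (-0.081 to 0.52), without PL 2 (-0.081), and ATP5H with single transcripts (-0.49).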
